A study of Drosophila melanogaster with 4 samples.

Results

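The 1424 Fru peaks on the right arm of the third chromosome, 3R, of Drosophila melanogaster are all the peaks that the authors' list places on the sequence named 3R, out of 5538 peaks in the whole list. They make up 25.7% of it, more peaks than on any other arm. The list also holds 3 peaks on the separate heterochromatic scaffold 3RHet (scores 46.86, 16.47 and 11.86), which were not counted with the arm. The peaks come from chromatin immunoprecipitation followed by sequencing (ChIP-seq): chromatin of whole embryos was cross-linked for 15 min in 1.8% formaldehyde, Fru-bound fragments were pulled down with a rabbit polyclonal anti-Fru antibody, and 2 ChIP libraries were sequenced beside 2 libraries of input DNA. All 4 libraries are from the strain labelled Y cn bw sp, of unknown sex. Its genotype is given as y[1] and oc[R3.2] on the first chromosome, cn[1] with bw[1] and sp[1], Gr22d[1] with Gr22b[1], and CG33964[R4.2] on the second, and Rh6[1], GstD5[1], MstProx[1], lab[R4.2] and LysC[1] on the third. The stage label reads 0-8, whereas the collection steps describe an 8 to 16 h egg laying, and which of them holds could not be settled.

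Fruitless (Fru) proteins are transcription factors that pair a BTB domain, used for protein contacts, with DNA-binding zinc fingers. The gene is best known for male-specific products that set up the courtship circuit, and it also makes products common to both sexes that are needed in development. Arm 3R carries several of the best-studied gene groups of the fly embryo: the homeotic (Hox) complexes, which give segments their identity, the E(spl) complex, whose bHLH repressors and Bearded-family proteins act in Notch signalling, and fru itself. In the RefSeq gene table of Release 6, all 8 Hox genes of the homeotic complexes (lab, pb, Dfd, Scr, Antp, Ubx, abd-A and Abd-B), all 11 bHLH and Bearded-family genes looked up for the E(spl) complex, and fru are on 3R. The peaks are in Release 5 coordinates, and positions of the 2 releases were not converted into each other, so no peak was assigned to any of these genes and peaks are named by position. Bases of Release 5 were not used here, so no peak sequence is shown.

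The peaks reached from one end of the arm to the other. Base 1 of 3R is at the centromere side. The first peak ran from 377 to 1689 (1313 bp, score 20.18) and the last, towards the telomere, from 27840210 to 27841766 (1557 bp, score 56.76). Both were wider than most peaks of the arm, ranking 79th and 47th of 1424 in width. Over this span of 27.8 Mb there were 51.1 peaks per Mb, and they covered 775 kb, or 2.78% of it.

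Peak number did not climb or fall steadily from centromere to telomere, and rich and poor megabases lay side by side. Counted in consecutive 1 Mb windows that start at the first peak, the mean was 51.3 ± 17.8 peaks (SD, n = 27 whole windows), with a median of 54. The first 3 windows, next to the centromere, held 72, 70 and 59 peaks, and the fourth only 20. The next 4 held 69, 56, 32 and 70. Windows 9 to 11 held 56, 32 and 37, and windows 12 and 13 held 75 and 68. The window of 75, from 11000377 to 12000376, was the richest of the arm. Along the middle of the arm the counts in windows 14 to 20 were 42, 50, 22, 49, 54, 50 and 52. Towards the telomere they were 69, 63, 15, 57, 46, 74 and 26 in windows 21 to 27, and the last, partial window held 39. The poorest window, with 15 peaks from 22000377 to 23000376, thus lay directly behind 2 rich ones. The 6 richest windows held 430 peaks (30.2% of the arm) and the 6 poorest 147 (10.3%). Across the 27 windows, which are neighbours on 1 chromosome, Spearman's rho between peak number and position was -0.20, and between the counts of adjacent windows it was -0.15 (26 pairs).

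**Figure D1:**
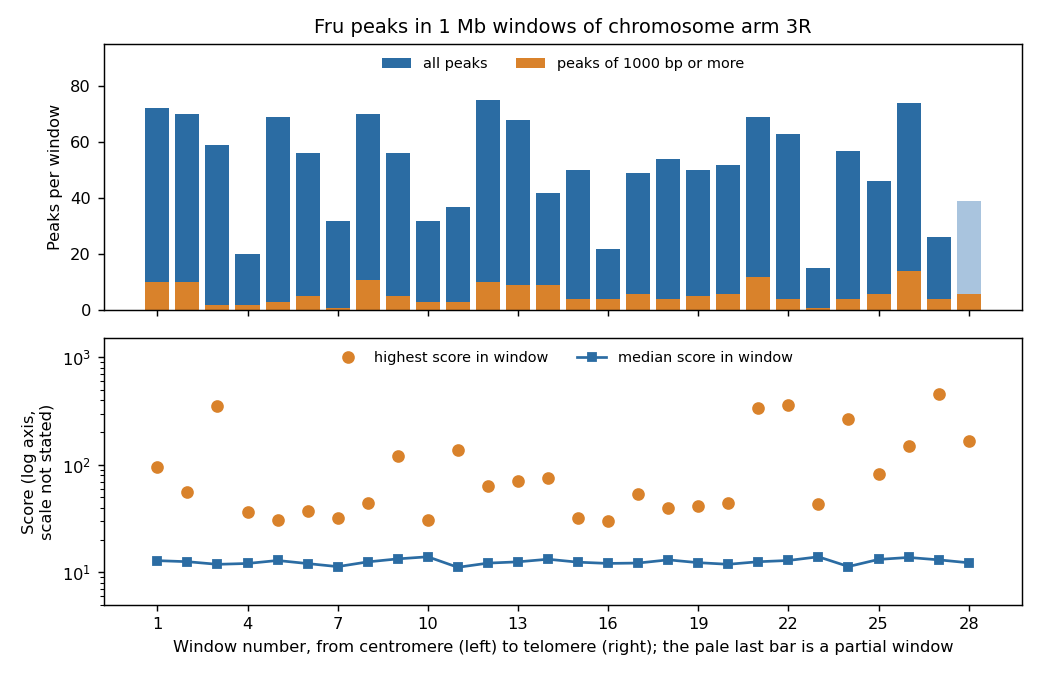
Upper panel, number of Fru peaks in each 1 Mb window of 3R (bars, with the part of 1000 bp or more in orange); lower panel, median and highest score of the peaks in each window, on a log axis. The counts move between 15 and 75 with no steady trend, the medians stay between 11.15 and 13.98, and scores over 100 occur in 9 of the 28 windows.

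The typical score and width of peaks showed little relation to the number of peaks in a window. The authors deposited a score for each peak without stating its scale, and its window medians lay between 11.15 and 13.98. Those of width lay between 305 and 513 bp. The poorest window had the largest median width, 513 bp, and a median score of 13.97. Over the 27 windows Spearman's rho of peak number was 0.03 with median score and 0.07 with median width, and 0.34 with the highest score of a window. When the span was divided into 5 equal parts, the one next to the centromere held the most peaks (329, or 59.1 per Mb) but the smallest share of peaks of 1000 bp or more (29 peaks, 8.81%). The other 4, towards the telomere, held 264, 271, 303 and 257 peaks, of which 10.98%, 14.02%, 10.56% and 13.62% were that broad.

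Most peaks on 3R were narrow and low in score. The middle 50% of the 1424 widths lay between 265 and 663 bp, around a median of 397.5 bp, and the middle 50% of the scores between 9.94 and 17.35, around a median of 12.57. Of all peaks, 1191 (83.6%) scored under 20, 24 scored over 50 and 11 over 100. The scores took 674 distinct values, and the most frequent of them, 12.57, was given to 21 peaks. No peak was shorter than 201 bp, and 45 peaks (3.16%) had exactly that width. The shortest peak on the other large arms was also 201 bp. Peaks of 201 to 250 bp made up 21.3% of the arm's peaks but 8.69% of the covered bases, whereas the 163 peaks of 1000 bp or more (11.4%) made up 31.4% of the covered bases. On X, 2L, 2R and 3L together, 349 of 3903 peaks (8.94%) were that broad. Scores over 100 made up 0.772% of the peaks on 3R, against 1.56% on X, 1.38% on 2L, 0.908% on 2R and 1.15% on 3L (47 of 3903 peaks, 1.20%, on these together), with no test.

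Wider peaks tended to score higher. The median score was 9.42 for peaks of 201 to 250 bp, 11.72 for 251 to 500 bp, 16.32 for 501 to 1000 bp, 22.73 for 1001 to 2000 bp and 93.12 for the 20 peaks wider than that. Scores in this widest class were spread from 21.13 to 456.57. Spearman's rho between width and score was 0.73 over the 1424 peaks, and 0.72 over the 1413 with a score up to 100. On X, 2L, 2R and 3L it was 0.66, 0.71, 0.72 and 0.67. Peaks share libraries and neighbourhoods, so these coefficients are descriptions.

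Some peaks departed from this relation. The widest peak of the arm, 5241 bp from 7197450 to 7202690, scored only 28.16, rank 91 of 1424. It was the only one of the 5 widest with a score under 100. Of the 10 widest, 7 scored over 100, and the remaining ones besides it were a 2805 bp peak from 1388313 to 1391117 (score 55.93) and a 2413 bp peak from 13541481 to 13543893 (score 74.98). In the other direction, a 1081 bp peak from 21856164 to 21857244 scored 292.67, rank 5 in score and rank 138 in width. Among peaks of up to 500 bp the highest score was 71.06, at a 426 bp peak from 12359473 to 12359898, and the next was 34.52, at 3997466 to 3997895. The peak with 71.06 stood alone: the nearest peaks were 63096 bp away on the centromere side and 91216 bp away on the telomere side. This peak and the list of narrow peaks it belongs to were chosen after their values had been seen.

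**Figure D2:**
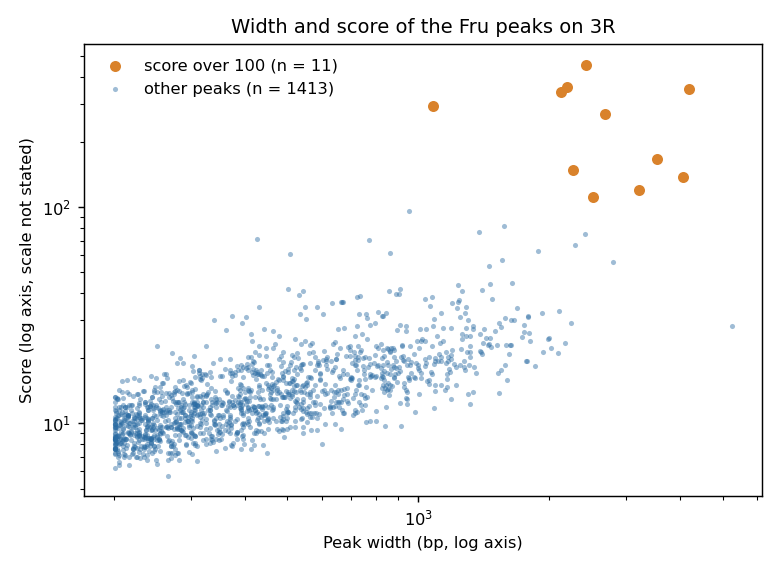
Width (bp, log axis) against score (log axis) for the 1424 Fru peaks on 3R, 1 point per peak, with the 11 of score over 100 in orange. Score rises with width, the peaks end sharply at 201 bp on the left, and the 5241 bp peak of score 28.16 lies far to the right of others of its score.

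The 11 highest peaks were scattered, with most of them in the part of the arm nearer the telomere. From the centromere outwards, the first was a 4178 bp peak from 2191628 to 2195805 with a score of 351.11. Then came peaks from 8821613 to 8824818 (3206 bp, score 120.4) and from 10642581 to 10646632 (4052 bp, score 137.38). After a stretch of 9.77 Mb without such a peak came one from 20410929 to 20413059 (2131 bp, score 341.19). The 292.67 peak followed, and with its centre 11.6 kb from that one's lay a peak of 360.38 from 21867188 to 21869382 (2195 bp), the closest pair of the 11. The next was from 23106088 to 23108767 (2680 bp, score 269.57), and then one from 25282229 to 25284489 (2261 bp, score 148.66).

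The highest score of the arm, 456.57, belonged to a 2424 bp peak from 26737332 to 26739755. The last of the 11 ran from 27046497 to 27049020 (2524 bp, score 111.25) and from 27572246 to 27575776 (3531 bp, score 166.79). Thus 8 of the 11 lay beyond base 20 Mb, in the 28.2% of the span that held 27.3% of all peaks, and 3 lay before it. The mark of 20 Mb was set after the positions had been seen. Just below these 11 in score was a 953 bp peak from 646247 to 647199 with 95.76.

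High scores occurred both inside and outside crowded places. Of the 11 peaks, 8 had another peak centre within 5 kb of their own, against 80.0% of the 1413 other peaks. The median number of such neighbours was 3 for the 11 and 2 for the others, and within 50 kb it was 10 for the 11 and 9 for the others. The peaks at 21867188 and 21856164 had 34 and 35 neighbours within 50 kb, and the one at 23106088 had 30. By contrast the peak at 25282229 had 5, with no other peak for 137177 bp on its centromere side, and the highest peak of the arm also had 5.

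Among all peaks of the arm, scores and widths differed little with the number of neighbours within 5 kb. The 286 peaks with no other centre within 5 kb had a median score of 12.61 and a median width of 384.5 bp. With 1 to 2 neighbours (626 peaks) the medians were 12.76 and 417 bp, with 3 to 5 (434 peaks) 12.25 and 380.5 bp, and with 6 or more (78 peaks) 11.74 and 398 bp. The quartiles of the scores overlapped almost wholly among these classes, from 9.45 to 10.02 at the lower and from 16.85 to 17.52 at the upper one. Direct neighbours had little likeness in score: Spearman's rho, as a description, was 0.06 for the 486 pairs less than 1 kb apart, -0.03 for the 513 pairs 1 to 10 kb apart and 0.10 for the 424 pairs farther apart. Only 29 peaks (2.04%) had no other peak within 50 kb on either side, counted end to start. Their median score was 14.89 (quartiles 10.89 and 24.05) and their median width 426 bp, against 12.57 and 397 bp for the other 1395.

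Some peaks nearly touched and others lay far from the next. The median distance between neighbouring centres was 3266 bp (quartiles 1183 and 14484 bp, n = 1423 pairs). Measured from the end of one peak to the start of the next, the shortest gap was 44 bp and the longest 481008 bp. The shortest gap was also 44 bp on X, 2L and 2R, and 45 bp on 3L. Gaps under 1000 bp numbered 486 (34.2%), and 203 of them were under 200 bp. At the other end, 72 gaps of 100 kb or more (5.06% of the pairs) took up 13.5 Mb, or 48.4% of the span. On X, 2L, 2R and 3L such gaps numbered 59, 65, 44 and 61 and took up 61.9%, 50.8%, 37.4% and 47.8% of the spans.

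**Figure D3:**
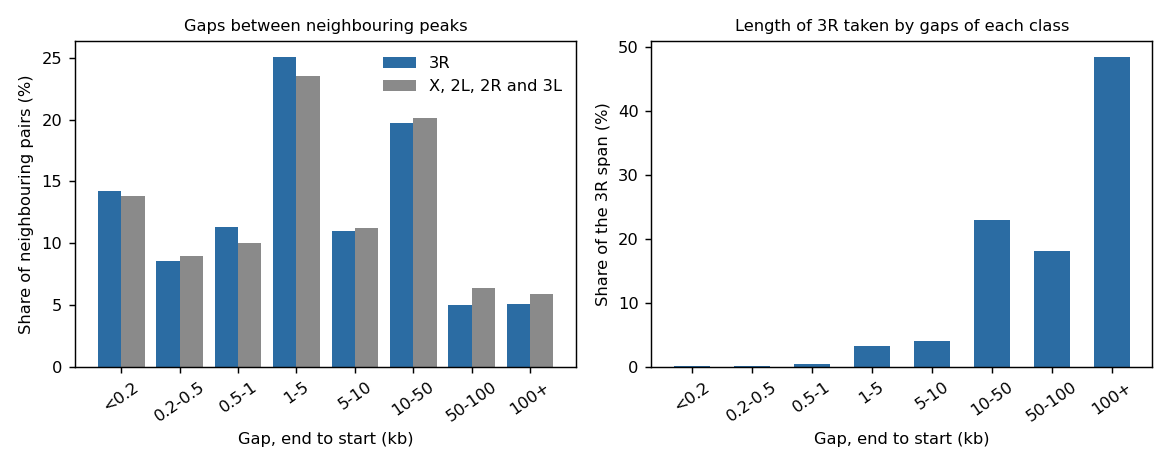
Left, share of neighbouring peak pairs in each class of gap (kb, end to start) on 3R (blue) and on X, 2L, 2R and 3L together (grey); right, share of the 3R span that gaps of each class take up. Gaps of 100 kb or more are 5.06% of the pairs on 3R and 48.4% of its span.

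Within the arm, a small part of the sequence held most of the peaks. Of the 557 windows of 50 kb, 222 (39.9%) held no peak and 73 held 1. The 133 windows with 5 or more held 993 peaks (69.7%), and the 26 windows with 10 or more held 342 (24.0%). The variance of the count was 4.49 times its mean, where independent placement at an even rate gives 1. This ratio was 4.72 on X, 3.83 on 2L, 4.08 on 2R and 3.67 on 3L, and these arms were not tested against 3R for it.

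Peaks less than 1000 bp apart formed short chains. Of the 1424 peaks, 625 (43.9%) had no such neighbour, 428 were in pairs and 162 in chains of 3. Another 209 peaks (14.7%) were in 45 chains of 4 or more, against 13.9% on X, 7.62% on 2L, 15.3% on 2R and 14.2% on 3L. The 8 longest chains on 3R had 6 or 7 members each and were 4099 to 8222 bp long.

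In 3 of these 8 chains, a peak of the top 11 lay among low ones: 7 peaks from 23103822 to 23111418 (highest score 269.57, median 12.09), 6 from 21865197 to 21871439 (360.38, median 11.52) and 6 from 10640255 to 10646632 (137.38, median 9.33). In the other 5 the highest scores were between 17.05 and 37.07. These ran from 7041405 to 7047124 (7 peaks), 8256547 to 8260645 (6), 12072977 to 12077925 (6), 25627608 to 25633962 (7) and 25865454 to 25873675 (6). The chain at 25627608 had the highest median score of the 8, 18.54, and peaks covered 80.4% of its length.

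When peaks less than 10 kb apart were linked, the arm broke into 425 stretches, of which 153 were single peaks. The 21 stretches with 10 or more peaks held 339 peaks (23.8%) on 2.84% of the span. The corresponding shares of peaks were 14.9% on X (8 stretches), 18.9% on 2L (14), 24.8% on 2R (22) and 10.0% on 3L (8). This distance was chosen after the list had been seen, and the share depends on it: 11.2% at 5 kb and 42.1% at 20 kb.

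The richest of these stretches ran for 59.2 kb from 21821929 to 21881124, with 35 peaks that covered 33.0% of it. Its 2 high peaks, of 292.67 and 360.38, had 9 low ones between them, 18 on the centromere side and 6 on the telomere side. The other 33 had a median score of 13.97 (6.5 to 38.33) and widths from 201 to 1074 bp. The median gap within the stretch was 765 bp and the longest 4936 bp. It ended at the longest empty interval of the arm: after its last peak (21880409 to 21881124, score 25.26) no peak was listed for 481008 bp. The windows of 50 kb from 21850001 to 21900000, the richest of the arm with 21 peaks, and from 21900001 to 22350000, a run of 9 empty ones, the longest of the arm, thus adjoin.

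**Figure D4:**
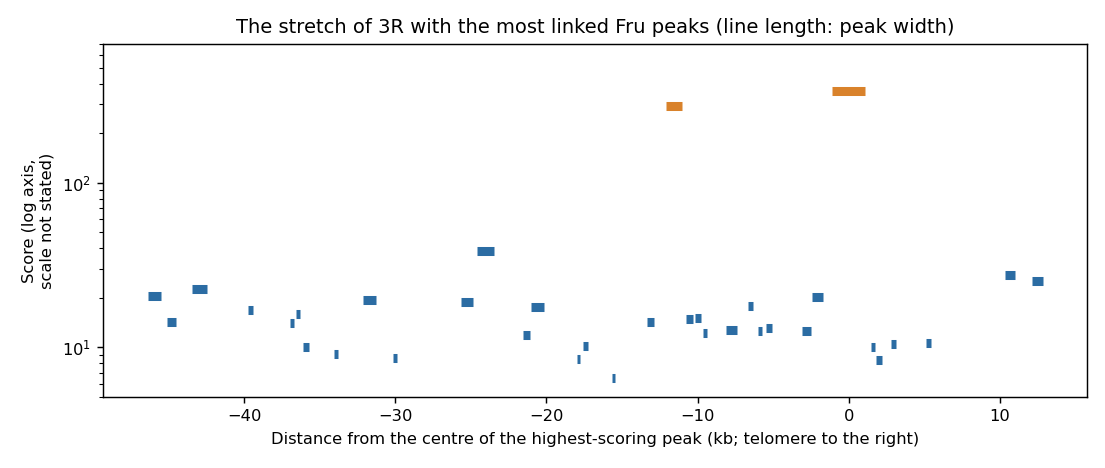
Score (log axis) of the 35 Fru peaks in the richest linked stretch of 3R against the distance of their centres from that of the highest peak (kb); each line is 1 peak, drawn to its width. The 2 orange peaks of 292.67 and 360.38 stand 11.6 kb apart among 33 peaks that score at most 38.33.

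Another rich stretch also ended at a wide gap. From 23064325 to 23115992, 31 peaks in 51.7 kb included the peak of 269.57, but their median score was 9.82. It lay between gaps of 87.7 kb and 268 kb. The 50 kb window from 23050001 to 23100000, which held 18 of its peaks, had a median score of 9.40, the lowest of the 10 richest windows. Wide gaps did not follow every rich stretch. Those next in peak number, of 22 peaks from 12046845 and 21 peaks from 20043216, were followed by gaps of 15.1 and 24.0 kb. By construction, every linked stretch ends at a gap of 10 kb or more.

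Apart from the window at 21850001, none of the 10 richest 50 kb windows held a score over 100. The one at 21800001 holds part of the same richest stretch, whose 2 high peaks lie in the window at 21850001. In the window from 12050001 to 12100000, 20 peaks had a median score of 11.91 and a highest of 34.06, and covered 28.8% of it, the largest share among the 10 richest windows. The window from 13500001 to 13550000 held 17 peaks with the highest median score of the 10, 16.11, and a highest of 74.98. Windows starting at 1450001 and 20050001 held 16 peaks each, those at 4850001 and 21800001 held 15 each, that at 2900001 held 14, and that at 7000001 was the first of 5 with 13. Their median scores lay between 10.05 and 15.91, and their highest scores between 28.29 and 44.22.

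The 10 longest gaps each took up 1.03% to 1.73% of the span, and 5 of them ended before base 7034768. None lay between 13225290 and 19185347 or beyond 24148561. From centromere to telomere they ran from 1834263 to 2174925 (341 kb), 3013307 to 3300225 (287 kb), 3357892 to 3711921 (354 kb), 4176488 to 4475839 (299 kb) and 6711565 to 7034767 (323 kb). These were followed by 8524595 to 8811899 (287 kb), 12918797 to 13225289 (306 kb), 19185348 to 19505781 (320 kb), 21881125 to 22362132 (481 kb) and 23779661 to 24148561 (369 kb). The gaps that begin at 3013307 and 3357892 were separated by 57.7 kb with 2 peaks. The edges of these gaps were often unequal: the 50 kb next to the longest gap held 31 peaks on the centromere side and 1 on the telomere side, and those next to the 323 kb gap held 5 and 20. The peaks that bordered the 10 gaps scored from 7.3 to 37.61, and none of them was among the 11 highest.

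Set against the other large arms, 3R had more peaks per megabase than X, by a test with the window as unit. The 27 windows of 3R averaged 51.3 ± 17.8 peaks and the 20 windows of X 34.4 ± 18.2 (SD). The ratio of 3R over X was 1.49 (95% interval 1.19 to 1.87, quasi-Poisson regression over n = 112 windows of 5 arms, adjusted p = 0.00295). The embryos were of unknown sex and read depth is unknown, so a difference in depth between X and 3R was not tested. Every comparison with X here shares this limit. Over 2L (42.7 ± 15.2, n = 22 windows) the ratio was 1.20 (0.978 to 1.48, adjusted p = 0.0947), over 3L (43.25 ± 15.3, n = 24) 1.19 (0.970 to 1.45, adjusted p = 0.0947) and over 2R (61.9 ± 15.3, n = 19) 0.828 (0.682 to 1.01, adjusted p = 0.0947). These 3 did not pass the threshold of 0.05, and their intervals leave room for ratios from 0.682 to 1.48. Among the 25% of peaks with the highest score (n = 110 windows), 3R did pass over 2L and 3L, with ratios of 1.34 and 1.35 (adjusted p = 0.0424 for both). That cut was made over all arms together, so an arm with lower scores keeps a smaller share of its peaks. Density within it therefore depends on score as well, and is no separate support for the full list. Per 100 protein-coding genes of the arm in the Release 6 table, there were 41.9 peaks on 3R, 32.2 on X, 35.6 on 2L, 42.5 on 2R and 38.0 on 3L, with no test. The peaks were counted on Release 5 arms, which need not hold the same sequence as the Release 6 arms of the genes.

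Peaks on 3R were also slightly wider and higher in score than those on X in the full list. The geometric mean width was 441 bp on 3R and 404 bp on X, a ratio of 1.09 (95% interval 1.03 to 1.15, linear model of log2 width with errors clustered by window, n = 117 windows, adjusted p = 0.0076). That of the score was 13.8 on 3R and 12.9 on X, a ratio of 1.07 (1.02 to 1.12, n = 117, adjusted p = 0.0126 in the same kind of model). Both calls were lost among the 50% of peaks with the highest score (n = 116 windows), where the ratio of widths was 1.04 (adjusted p = 0.562) and that of scores turned to 0.967 (adjusted p = 0.44). They were also lost when chains were merged into single regions (n = 117 windows), with ratios of 1.09 for width (adjusted p = 0.19) and 1.05 for score (adjusted p = 0.223). Among the 25% with the highest score, scores on 3R were lower than on X (ratio 0.862, n = 115 windows, adjusted p = 0.0166). Both score cuts select peaks on the score itself, with which width rises. Ratios of score and width within them therefore depend on the cut as well, and cannot decide on the calls of the full list. Against 2L, 2R and 3L the ratios were 1.02, 1.04 and 1.05 for width and 0.980, 1.03 and 1.03 for score, and none passed (adjusted p from 0.0767 to 0.471).

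Neighbouring peaks were closer on 3R than on 2L. The geometric mean distance between centres was 4447 bp on 3R and 5599 bp on 2L, a ratio of 0.794 (95% interval 0.673 to 0.937, linear model of log2 distance with clustered errors, n = 117 windows, adjusted p = 0.0268). The ratios were 0.873 over X (0.674 to 1.13), 1.05 over 2R (0.900 to 1.23) and 0.888 over 3L (0.761 to 1.04), and these did not pass (adjusted p from 0.257 to 0.509). The call against 2L was lost once chains were merged in this way (ratio 0.894, n = 117 windows, adjusted p = 0.238) and with the top 50% of peaks (ratio 0.837, n = 115, adjusted p = 0.203), but not with the top 25% (ratio 0.690, n = 115, adjusted p = 0.0313). Against X the spacing of 3R passed after such merging (ratio 0.726, n = 117 windows, adjusted p = 0.0012), with the top 50% (ratio 0.590, adjusted p = 0.0068) and with the top 25% (ratio 0.490, adjusted p = 0.00363). Median scores were lower on X (11.22) than on 3R (12.57), so cuts made over all arms together keep a smaller share of the peaks on X. Spacing within the score cuts therefore depends on score as well.

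**Figure D5:**
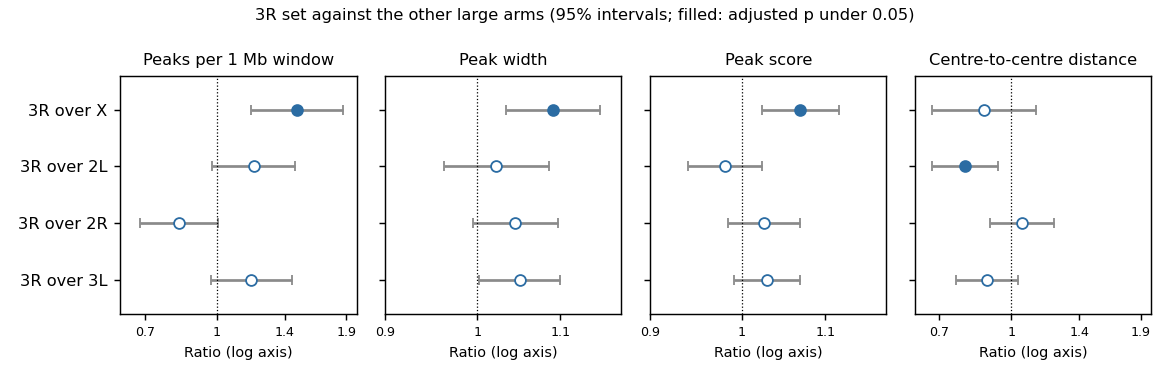
Ratio of 3R over each of X, 2L, 2R and 3L (log axes) for peaks per 1 Mb window, peak width, peak score and distance between neighbouring centres, with 95% intervals; filled points have an adjusted p under 0.05. The filled points are density, width and score over X and distance over 2L.

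These p-values measure the spread between windows of 1 genome in 1 list, not between embryo collections, as no value per library is in the list. In chromatin of whole embryos, a low score from binding in few cells and one from weak binding in many cannot be told apart.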

How the data were processed

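Of 2 ChIP and 2 input libraries, 1 peak list for the whole series was used. Per the file headers the authors deposited it in FlyBase Release 5 coordinates with peaks called by MACS; the build BDGP5, MACS2, BWA and CASAVA (1.7.0.3 and 1.7.0.2) are listed per the submitters' processing notes. The deposited columns hold each peak's first and last base and a score of unstated scale, used only within the list. The threshold, the filters, any pooling and the libraries that entered the call are in none of the labels or headers. Read depth is unknown.

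Width is last minus first base plus 1. Whole 1 Mb windows start at each arm's first peak. Density was compared by quasi-Poisson regression of counts per window; log2 width, score and distance by linear models with errors clustered by window. All were two-sided with Benjamini-Hochberg adjustment over 4 arms per measure, 16 tests in all. Both kinds of model were tested on simulated data: counts per window, and log2 values set like widths. No values set like scores or distances were simulated. Correlations carry no p. Alternatives changed score cuts, merging, window size and origin, and left out dense windows. Named by rule were the end peaks, 11 highest, 10 widest, 10 richest 50 kb windows, 10 longest gaps and chains of 6 or more. Members, lists and tests were chosen with earlier results of these data known. Comparisons with genes, planned for a Release 5 annotation, were not made. Tools were statsmodels 0.14.6, scipy 1.17.1, pandas 2.3.3, numpy 2.4.6 and matplotlib 3.10.9 under Python 3.11.15.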

Additional observations from a re-analysis of the deposited data

How the results depend on the processing

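Of 112 tested ratios under 7 alternatives, 93 kept their direction and side of the threshold; in the other 19 the cause was not tested. The higher density over X passed in all 7 (1.51 to 2.10). The top 50% and 25% are cut on the score itself, over all arms together. Ratios of score and width within them therefore depend on the cut as well. So do those of density and spacing, as an arm with lower scores keeps a smaller share of its peaks. With the top 50% of peaks, the ratios over X were 1.04 for width (call lost), 0.967 for score (turned) and 0.590 for spacing (now past the threshold), and spacing over 2L was 0.837 (lost). With the top 25%, density passed over 2L (1.34) and 3L (1.35), score passed over 2L (0.873) and turned over X (0.862), 2R (0.965) and 3L (0.967), width was lost over X (1.00) and turned over 2L (0.977), and spacing passed over X (0.490) and 3L (0.667) and turned over 2R (0.973). With peaks closer than 1000 bp merged, width (1.09) and score (1.05) over X and spacing over 2L (0.894) lost their calls, and spacing over X passed (0.726). Window size, window origin and leaving out the densest window of each arm changed no call and no direction. The main windows leave out the sequence before the first peak, which on 2R begins only at base 1559630. With windows from base 1, the density ratio over 2R was 0.890, against 0.828 in the main setting.

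By construction, the 1424 peaks became 746, 408 and 938 with the top 50%, the top 25% and merging. The median width became 604, 808.5 and 636.5 bp and the median distance 9468, 21449 and 9258 bp. With the top 50% and 25%, peaks covered 2.00% and 1.38% of the span, and 49.7% and 61.2% of 50 kb windows were empty. The variance to mean ratio became 2.72, 2.05 and 2.34, against 2.43 with 10 kb and 6.74 with 200 kb windows, of which 74.9% and 6.43% were empty. No paired analysis was possible because all libraries share 1 list without values of their own, and no replicate could be left out. Regions too thinly sequenced to be called cannot be named.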
